A study of Rattus norvegicus with 6 samples.

Results

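The genes described here encode the respiratory chain and ATP synthase of the mitochondrion. They were taken by name from the deposited rat gene table: every row whose name starts Mt-nd, Mt-co, Mt-cyb or Mt-atp for the mitochondrial genome, and Nduf, Uqcr, Cox4 to Cox8 or Atp5, or is Sdha, Sdhb, Sdhc or Sdhd, for the nuclear genome. The rule found 107 of 19088 gene rows, 13 mitochondrially encoded and 94 nuclear. RNA was sequenced from cells of the nucleus pulposus, the soft core of the intervertebral disc, taken as primary cells from SD rats. In the rShh group (n = 3) the cells received recombinant Sonic hedgehog, the secreted ligand of the Hedgehog pathway, at 200 ng/ml in DMSO for 48 h. In the Control group (n = 3) the cells received DMSO alone for 48 h. Both groups were grown in DMEM/F12 medium with fetal bovine serum. Whether the 3 samples of each group were grown or isolated separately is not stated, and the p-values therefore reflect sample-to-sample spread that could be technical.

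The respiratory chain moves electrons from NADH through complex I, and from succinate through complex II, to coenzyme Q, complex III, cytochrome c and complex IV, which passes them to oxygen. Complexes I, III and IV pump protons across the inner membrane, and ATP synthase, or complex V, uses the gradient to make ATP. Complex II is made of nuclear subunits alone, while the other complexes join subunits of both genomes: mitochondrial DNA is transcribed as long precursors that are cut into single mRNAs, and the nuclear subunits come from many separate genes. Nucleus pulposus cells live in a tissue with little blood supply and are known for making much of their ATP by glycolysis.

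Gene counts summed to 65116846 to 70031072 per library in the rShh group and to 50758195 to 55501124 in the Control group. Of 14775 genes tested with edgeR, 4657 (31.5%) were higher and 4257 (28.8%) lower in rShh at an adjusted p under 0.05, so 60.3% were called and a call on its own sets no gene apart. Aggrecan (Acan), the main proteoglycan of the disc core, had 569 to 596 CPM (counts scaled to library size, with TMM factors) in the rShh libraries and 48.0 to 63.8 CPM in the Control libraries. Of 9 markers of nucleus pulposus cells tested, 4 were higher in rShh (Acan, Sox9, Hif1a and Ca12) and 4 lower (Krt8, Cd24, Pax1 and Col2a1). Foxf1 was not called (edgeR adjusted p = 0.299). The 5 leukocyte markers in the table summed to 13.03 to 15.5 CPM in rShh and 10.99 to 14.1 CPM in Control. Most of this sum was Cd14, at 12.5 to 14.5 CPM in rShh and 10.7 to 13.4 CPM in Control, which was not called (edgeR adjusted p = 0.128). Cd68, Csf1r, Itgam and Cd3e each had at most 0.672 CPM in any library. The 3 endothelial markers in the table summed to 1.89 to 2.22 CPM in rShh and 4.86 to 7.02 CPM in Control, without overlap. This difference lay in Tek alone, at 1.76 CPM in rShh and 5.71 CPM in Control (log2 change -1.70, edgeR adjusted p = 3.41e-05). Vwf had 0.280 CPM in rShh and 0.221 CPM in Control and was not called (edgeR adjusted p = 0.799). Cldn5 had at most 0.0177 CPM in any library and was not tested. The part of these markers in the results was not tested. Of 9 Y-chromosome genes tested, 6 had no count in any Control library and together 13523 to 14604 counts in each rShh library, so a difference in the cells' origin and the treatment cannot be told apart here. In bulk RNA, fewer cells of a kind and less RNA per cell cannot be told apart either.

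The 2 genomes' genes moved in opposite directions. All 13 mitochondrially encoded mRNAs were higher in rShh, against 9 of 93 nuclear genes tested, and 53 of those 93 were lower. Without rShh replicate 1, 5 nuclear genes were higher. The remaining nuclear row, Ndufs6, is annotated as a processed pseudogene, had almost no counts and was not tested. The median log2 change was 0.72 over the mitochondrially encoded genes and -0.32 over the nuclear genes, beside 0.01 over all genes tested. The share of genes called lower was 57.0% among the nuclear genes and 28.8% among all genes tested, and the share called higher was 9.68% and 31.5%. Where a change beyond 1.2-fold was asked for (edgeR's glmTreat), 34 nuclear genes were lower, beside 19.4% of all genes tested, and 4 nuclear and 12 mitochondrially encoded genes were higher, beside 24.9%. Among the genes named by the rule under the methods, Mt-nd1, Sdhc, Cox4i1, Cox8a, Ndufa4, Ndufb4, Uqcrc2, Uqcrh, Cox5a and the chromosome 1 row of Uqcrb lost their calls in that test (adjusted p = 0.128 to 0.952).

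Per library, the 13 mitochondrially encoded mRNAs took 3.22%, 3.19% and 3.29% of all gene counts in rShh, against 2.24%, 2.13% and 1.93% in Control. The nuclear rows together took 0.641%, 0.618% and 0.639% of the counts in rShh, against 0.752%, 0.767% and 0.833% in Control. Neither measure overlapped between the groups: every rShh library lay above every Control library in the first and below it in the second. There were 5.11 ± 0.0746 mitochondrially encoded counts for each nuclear one in rShh and 2.69 ± 0.339 in Control (SD, n = 3 each). The mean log2 CPM of the mitochondrially encoded genes exceeded that of the nuclear genes by 5.15 ± 0.0138 in rShh and 4.12 ± 0.195 in Control, a difference of 1.03 on the log2 scale. Control replicate 3 stood at the end of its group in both measures: it was the lowest Control library in 13 of 13 mitochondrially encoded genes and the highest in 63 of 93 nuclear genes. Without it, the difference was 0.92. Leaving the mitochondrially encoded genes out of the scaling gave the same counts of calls, 13 higher among them and 9 higher and 53 lower among the nuclear genes.

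**Figure D1:**
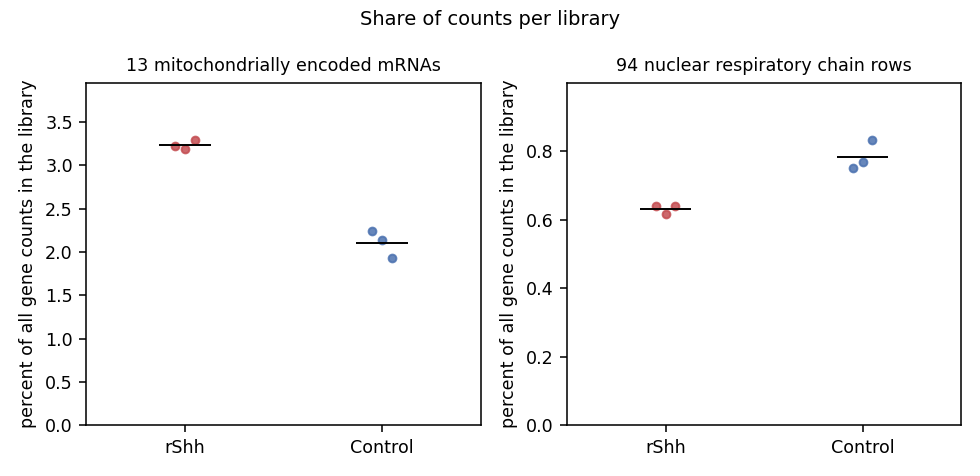
Percent of all gene counts (y axis) taken by the 13 mitochondrially encoded mRNAs (left) and the 94 nuclear respiratory chain rows (right) in each rShh and Control library; points are libraries and lines are group means. The rShh libraries sit between 3.19% and 3.29% on the left, above the Control libraries, and between 0.618% and 0.641% on the right, below them.

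The mitochondrially encoded proteins are the membrane core of the chain. Mt-nd1 to Mt-nd6 and Mt-nd4l form the proton-pumping arm of complex I, Mt-cyb is the electron-carrying core of complex III, Mt-co1 to Mt-co3 form the catalytic core of complex IV, and Mt-atp6 and Mt-atp8 belong to the membrane part of ATP synthase. Levels are given as FPKM, fragments per unit of transcript length and of sequencing depth, so that genes of different length can be set side by side. The libraries were made from poly(A) RNA, so a level can also depend on how well each RNA was captured, which was not measured. Mt-co1 was the most abundant of them, with 7150.4, 7446 and 7539 FPKM in rShh against 5336, 5076 and 4699 FPKM in Control. Mt-nd6, the one gene among them on the other strand, had the lowest mean over all 6 libraries, with 592, 595 and 619 FPKM in rShh and 396, 376 and 325 FPKM in Control. In Control alone Mt-nd4 was lower still, at 379.6, 361 and 309 FPKM. In Mt-co1 and Mt-nd6 every rShh library was above every Control library, and so it was for all 13.

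The size of the increase differed between the genes. Mt-nd4l had the steepest, with 1451, 1442 and 1482 FPKM in rShh against 625, 587 and 459 FPKM in Control, a log2 change of 1.38 ± 0.09 (SE; edgeR adjusted p = 9.67e-07). Mt-nd2 (0.99), Mt-nd4 (0.97), Mt-nd5 (0.96), Mt-atp8 (0.94) and Mt-co3 (0.89) followed. Mt-atp6 (0.72), Mt-nd6 (0.71), Mt-nd3 (0.70), Mt-co2 (0.57) and Mt-co1 (0.54) lay lower. Mt-cyb had 2343, 2342 and 2439.7 FPKM in rShh against 1894, 1798 and 1733 FPKM in Control, a log2 change of 0.38 ± 0.04 (SE; edgeR adjusted p = 3.41e-05). Mt-nd1 had the smallest change, with 926, 923 and 965 FPKM in rShh and 809, 759.8 and 709 FPKM in Control, a log2 change of 0.30 ± 0.05 (SE; edgeR adjusted p = 0.000688). Mt-nd1 was also the one gene of the 13 that did not pass when a change of more than 1.2-fold was asked for (glmTreat adjusted p = 0.190).

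The unequal increases changed the make-up of the mitochondrially encoded mRNA. Mt-co1 made up 41.6% of its counts in rShh and 44.5% in Control on average, Mt-cyb 9.90% and 11.8%, and Mt-nd1 3.27% and 4.15%. Mt-co3 made up 11.8% in rShh and 9.91% in Control, Mt-nd5 5.11% and 4.09%, and Mt-nd4l 1.58% and 0.943%. Across the libraries the shares of Mt-nd1, Mt-co1, Mt-co2 and Mt-cyb were lower in every rShh library than in any Control library, that of Mt-nd3 overlapped, and those of the other 8 were higher. Along the mitochondrial genome (coordinates of the deposited table, whose build is not given in the sources used here) the weakest changes were at both ends of the coding stretch, at Mt-nd1 (MT:2740-3694) and Mt-cyb (MT:14136-15278). Neighbouring genes share bases, 43 between Mt-atp8 and Mt-atp6, 7 between Mt-nd4l and Mt-nd4 and 23 between Mt-nd5 and Mt-nd6, so their reads can be split between rows, and the strand setting of the counting is not given in the sources used here. The 2 ribosomal RNA rows of the same genome, which are not among the 107 genes, were higher as well, with log2 changes of 0.54 (MT:68-1025) and 1.08 (MT:1094-2664; edgeR adjusted p = 0.000105 and 2.04e-05).

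**Figure D2:**
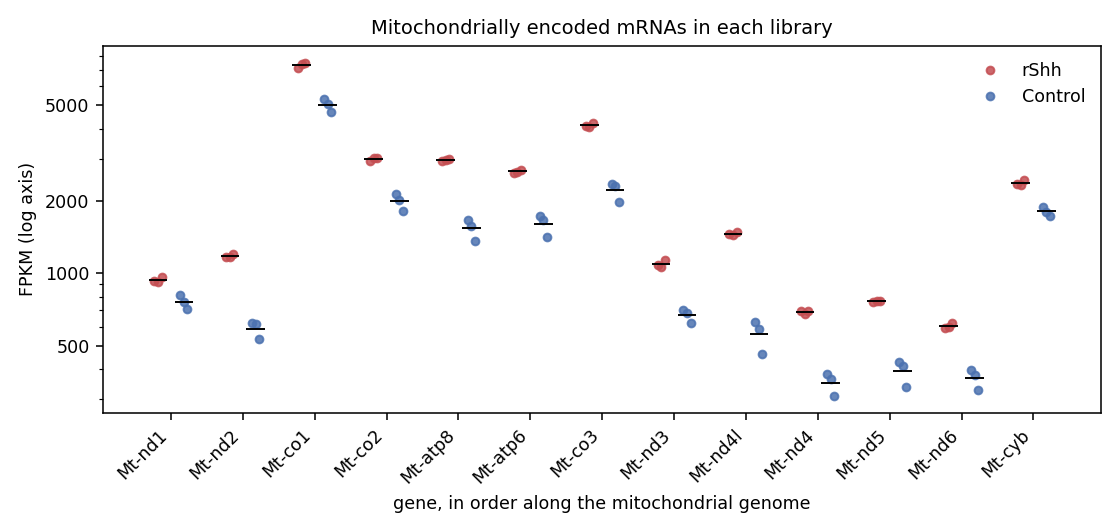
FPKM on a log axis (y) of the 13 mitochondrially encoded mRNAs, in their order along the mitochondrial genome (x), in each rShh and Control library; points are libraries and lines are group means. In every gene the 3 rShh libraries lie above the 3 Control libraries, with the widest gap at Mt-nd4l (log2 change 1.38) and the narrowest at Mt-nd1 (0.30).

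Among the nuclear genes, decreases outnumbered increases in each of the 5 complexes. Among all genes tested, 28.8% were lower and 31.5% higher. Of 47 nuclear complex I genes tested, 30 were lower and 2 higher (median log2 change -0.34), of 4 complex II genes 2 were lower (median -0.24), and of 17 complex V genes 11 were lower and none higher (median -0.33). Of 9 complex III genes 4 (44.4%) were lower and 3 (33.3%) higher (median -0.08). Of 16 complex IV genes 6 (37.5%) were lower and 4 (25%) higher (median -0.14). Complexes III and IV thus lay nearer to the shares of all genes than complexes I and V did. Ndufa4, which was lower, and Ndufa4l2, which was higher, are counted and summed here in complex I by their names, although Ndufa4 is now placed in complex IV. No test compared the complexes with each other. In counts over libraries without a test, 57 nuclear genes had every rShh library below every Control library and 11 had it above, beside 32.5% and 35.7% of all genes tested.

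Summed over a complex, the nuclear FPKM in rShh was 0.794 times that in Control for complex I, 0.801 for complex II, 0.896 for complex III, 0.843 for complex IV and 0.805 for complex V. The mitochondrially encoded FPKM was 1.83 times as high for complex I, 1.31 for complex III, 1.57 for complex IV and 1.79 for complex V. For complex I this was 2019 to 2132 FPKM of nuclear and 6633 to 6872 FPKM of mitochondrially encoded mRNA in rShh, against 2498 to 2813 FPKM and 3292 to 3966 FPKM in Control. In each of these sums the groups did not overlap.

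**Figure D3:**
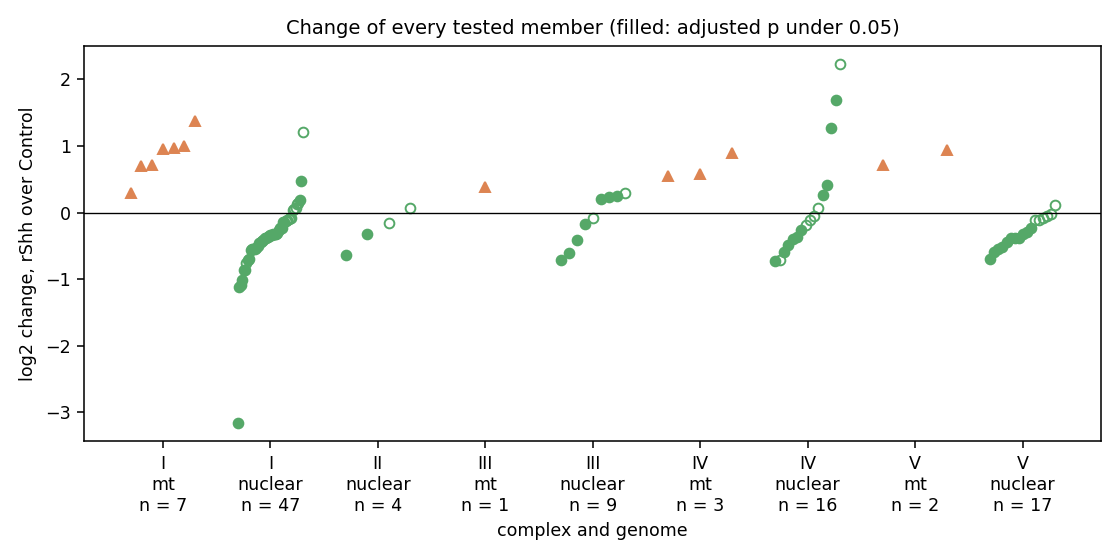
Log2 change, rShh over Control (y axis), of each of the 106 genes tested, by complex and genome (x axis); triangles are mitochondrially encoded, circles nuclear, and filled symbols have an edgeR adjusted p under 0.05. All triangles lie above 0 (0.30 to 1.38), while most circles lie below it, with a median of -0.32.

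The nuclear windows below show the starts of genes at both ends of the nuclear range, the alternative subunits Ndufa4l2 and Cox6a2, which were higher in rShh, and the complex I subunits Ndufb2, Ndufs8 and Ndufa6, which were lower. Each runs from 250 bases before to 50 bases after the gene's start in RefSeq's GRCr8 assembly, 5′ to 3′ on the gene's strand. The deposited table's coordinates come from another, unnamed annotation and are not comparable with these. Capitals mark matches, on either strand, to ACGTG (the core of the hypoxia response element), CCGGAAG (bound by ETS factors such as GABPA) or AAGATGG (bound by YY1); the motifs do not overlap in these windows.
Ndufa4l2 chr7:65241919-65242218 (plus strand): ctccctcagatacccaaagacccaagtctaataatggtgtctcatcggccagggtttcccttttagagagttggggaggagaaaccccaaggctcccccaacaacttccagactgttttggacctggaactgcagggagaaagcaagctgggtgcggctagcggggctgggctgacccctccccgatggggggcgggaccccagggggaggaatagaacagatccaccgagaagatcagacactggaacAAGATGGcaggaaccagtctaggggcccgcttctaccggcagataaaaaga
Cox6a2 chr1:192219667-192219966 (minus strand): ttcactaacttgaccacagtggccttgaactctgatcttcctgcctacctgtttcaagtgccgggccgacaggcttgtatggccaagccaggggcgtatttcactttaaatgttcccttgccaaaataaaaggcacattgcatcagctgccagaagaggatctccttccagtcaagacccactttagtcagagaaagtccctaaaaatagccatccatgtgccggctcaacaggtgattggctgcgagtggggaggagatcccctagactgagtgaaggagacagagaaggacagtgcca
Ndufb2 chr4:69334057-69334356 (plus strand): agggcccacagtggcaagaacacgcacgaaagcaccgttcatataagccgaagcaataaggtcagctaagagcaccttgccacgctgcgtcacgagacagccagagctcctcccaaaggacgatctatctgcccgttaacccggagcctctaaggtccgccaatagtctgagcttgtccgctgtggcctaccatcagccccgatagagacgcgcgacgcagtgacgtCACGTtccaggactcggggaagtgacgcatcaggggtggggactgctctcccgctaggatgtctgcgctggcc
Ndufs8 chr1:210573649-210573948 (minus strand): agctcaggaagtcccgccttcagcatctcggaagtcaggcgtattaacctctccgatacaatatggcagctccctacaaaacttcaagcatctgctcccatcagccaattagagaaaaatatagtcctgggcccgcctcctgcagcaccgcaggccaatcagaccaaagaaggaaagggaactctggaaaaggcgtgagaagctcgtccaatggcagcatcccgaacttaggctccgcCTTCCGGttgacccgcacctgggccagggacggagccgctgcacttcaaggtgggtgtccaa
Ndufa6 chr7:115750268-115750567 (minus strand): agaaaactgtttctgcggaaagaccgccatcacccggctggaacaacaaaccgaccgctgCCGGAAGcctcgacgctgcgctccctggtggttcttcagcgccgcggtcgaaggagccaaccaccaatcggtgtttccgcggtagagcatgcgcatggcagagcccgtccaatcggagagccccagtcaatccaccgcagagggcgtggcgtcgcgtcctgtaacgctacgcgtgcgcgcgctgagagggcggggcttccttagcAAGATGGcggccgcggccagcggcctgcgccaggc

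Such windows were found by symbol for 80 of the 94 nuclear rows, in 78 different windows. CCGGAAG stood in 26.9% of them and in 8.75% of all 33469 promoters of the table, AAGATGG in 25.6% and 7.01%, ACGTG in 26.9% and 19.3%, and the palindromic motif of nuclear respiratory factor 1 in 7.69% and 0.852%. Of the 45 windows of genes lower in rShh, 13 held CCGGAAG, 12 AAGATGG, 14 ACGTG and 3 the palindromic motif. Of the 7 windows of genes higher in rShh, 2 held CCGGAAG, 2 AAGATGG, 1 ACGTG and 0 the palindromic motif. These are matches of letters, counted on both strands, and not measured binding. The nuclear windows come only from symbols with a single window, while the share of all promoters also counts symbols with several, so the sets are not alike.

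Complex I, the entry point for NADH, has a core that carries out electron transfer, accessory subunits around it, and assembly factors that are not in the finished enzyme. Of its 7 nuclear core genes 6 were lower in rShh (median log2 change -0.55), beside 28.8% of all genes tested. The largest decrease among them was in Ndufs8, an iron-sulphur subunit (chromosome 1:219141292-219144610 in the deposited table), with 35.3, 34.6 and 32.9 FPKM in rShh against 52.9, 59.9 and 73.3 FPKM in Control, a log2 change of -0.87 ± 0.11 (SE; edgeR adjusted p = 9.78e-05). The groups did not overlap, and the Control libraries spread more widely than the rShh libraries. Ndufs7 (-0.71), Ndufs3 (-0.70) and Ndufv1, which binds NADH (-0.53), were also lower. Ndufs1, the largest core subunit, had a log2 change of 0.05 and overlapping groups (edgeR adjusted p = 0.528).

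Of 32 accessory complex I genes tested, counted by name and so with Ndufa4 and Ndufa4l2, 21 were lower and 2 higher in rShh (median log2 change -0.33). Among all genes tested 28.8% were lower and 31.5% higher. Ndufb2, in the membrane arm (chromosome 4:67378188-67385266), had 46.7, 41.2 and 41.6 FPKM in rShh against 67.0, 85.9 and 106 FPKM in Control, a log2 change of -1.01 ± 0.15 (SE; edgeR adjusted p = 0.000225). Ndufa6 (chromosome 7:123583062-123586919) had 48.6, 45.9 and 43.5 FPKM in rShh against 75.1, 80.8 and 93.1 FPKM in Control, a log2 change of -0.86 ± 0.10 (SE; edgeR adjusted p = 3.16e-05). In both, Control replicate 3 was the highest library and all 3 rShh libraries were below the Control libraries. Ndufb4, Ndufa13 and Ndufa11 had the highest mean FPKM over all 6 libraries among the nuclear genes of the complex, an order that differed within each group. Ndufa13, also known as Grim-19, had 103, 92.4 and 104 FPKM in rShh and 132, 145 and 158 FPKM in Control, without overlap (log2 change -0.55, edgeR adjusted p = 0.000308). Ndufa11 had 119, 116 and 118 FPKM in rShh and 116, 130.0 and 128 FPKM in Control, overlapping (edgeR adjusted p = 0.239). It reached an adjusted p of 0.0353 without Control replicate 1, at a log2 change of -0.16.

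Ndufb4 was higher by a small step, with 130.4, 132 and 130.0 FPKM in rShh and 115, 113 and 115 FPKM in Control (log2 change 0.18, edgeR adjusted p = 0.0169). The groups did not overlap, yet the call was lost without any one of rShh replicates 1, 2 and 3 and Control replicate 2 (edgeR adjusted p = 0.0690, 0.0536, 0.0523 and 0.0510, at log2 changes of 0.17, 0.19, 0.19 and 0.18), and with quantile normalization (adjusted p = 0.0905). Ndufa1, on the X chromosome, had 66.3, 17.04 and 63.1 FPKM in rShh and 74.4, 62.2 and 111 FPKM in Control: rShh replicate 2 stood far below every other library, the groups overlapped and no change was called (edgeR adjusted p = 0.133). A row named Ndufa10l1 on chromosome 6 had the lowest log2 change of all (-3.16, edgeR adjusted p = 0.0162), from counts of 1, 1 and 43 in rShh and 78, 105 and 144 in Control, and its call was lost without Control replicate 3 (log2 change -2.86, edgeR adjusted p = 0.0528) and in DESeq2 (adjusted p = 0.0669). Its namesake on chromosome 9 carried 3535 to 3813 counts in rShh and 3015 to 3218 in Control and was not called, so reads shared between these copies could move the small row, and its value is uncertain.

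Of the 8 complex I assembly factors 3 (37.5%) were lower in rShh and none higher, the other 5 not being called. Among all genes tested 28.8% were lower and 31.5% higher, so the share of assembly factors lower was near that of all genes. Ndufaf8 had 10.6, 13.2 and 14.3 FPKM in rShh against 22.3, 29.2 and 30.4 FPKM in Control, a log2 change of -1.11 ± 0.16 (SE; edgeR adjusted p = 0.000167). Ndufaf6 had 3.43, 4.24 and 4.14 FPKM in rShh against 7.01, 8.40 and 9.56 FPKM in Control, a log2 change of -1.09 ± 0.15 (SE; edgeR adjusted p = 0.000161). These were lower levels than most subunits had, and in both the groups were well apart. Ndufaf3 was also lower, at -0.45. Of 9 further assembly genes outside the Nduf names 5 were lower and none higher, with the lowest log2 changes in Dmac1 (-0.90), Acad9, an acyl-CoA dehydrogenase relative (-0.78), and Timmdc1 (-0.63).

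Complex II, succinate dehydrogenase, joins the tricarboxylic acid cycle to the chain. Sdhb, its iron-sulphur subunit, had 52.2, 54.6 and 52.4 FPKM in rShh against 82.7, 75.6 and 88.1 FPKM in Control, a log2 change of -0.64 ± 0.07 (SE; edgeR adjusted p = 2.19e-05), with no overlap. Sdhc, a membrane anchor, had 78.6, 78.1 and 73.9 FPKM in rShh against 91.0, 90.5 and 106 FPKM in Control (log2 change -0.33, edgeR adjusted p = 0.00336). Sdha, the flavoprotein that oxidises succinate, had 36.0, 39.7 and 39.2 FPKM in rShh and 43.6, 39.5 and 43.9 FPKM in Control, at a log2 change of -0.15 (edgeR adjusted p = 0.0522). It stood at the threshold: its adjusted p was 0.0280 without Control replicate 2, at a log2 change of -0.20, and 0.0163 to 0.0488 under 3 other scalings and a minimum count of 50. Sdhd, the other anchor, had 34.5, 34.4 and 33.0 FPKM in rShh and 36.1, 29.4 and 31.0 FPKM in Control, overlapping (edgeR adjusted p = 0.471).

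In complex III the genes split. Uqcr11, a small subunit, had 92.1, 85.2 and 91.0 FPKM in rShh against 127, 149 and 159.8 FPKM in Control, a log2 change of -0.71 ± 0.09 (SE; edgeR adjusted p = 8.02e-05), and Uqcrq (-0.61), the core protein Uqcrc1 (-0.42) and the Rieske iron-sulphur protein Uqcrfs1 (-0.18) were also lower. The partner core protein Uqcrc2 was higher, with 51.2, 51.7 and 50.9 FPKM in rShh against 44.6, 43.3 and 40.6 FPKM in Control (log2 change 0.25, edgeR adjusted p = 0.00285), without overlap, as it was for Uqcr11. Uqcrh, the hinge protein, had 125, 111 and 115 FPKM in rShh and 104, 96.1 and 97.8 FPKM in Control (log2 change 0.23, edgeR adjusted p = 0.0169). Its call was lost without rShh replicate 1 (log2 change 0.16, edgeR adjusted p = 0.0900) and without Control replicate 2 (0.20, adjusted p = 0.0641), and with quantile normalization (adjusted p = 0.0689). Uqcr10 had 104, 107 and 117 FPKM in rShh and 111, 110.0 and 124 FPKM in Control and was not called. Uqcrb stood on 2 rows that may share reads, the one on chromosome 1 being a single short stretch of 94718402 to 94718876. That row had a log2 change of 0.20 (edgeR adjusted p = 0.0445), lost without any one of rShh replicates 1, 2 and 3 and Control replicate 3 (log2 changes of 0.23, 0.19, 0.17 and 0.14, edgeR adjusted p = 0.0565, 0.123, 0.155 and 0.106). The call was also lost with total count scaling (adjusted p = 0.0693), no low-count filter (0.0625) and quantile normalization (0.0977). The row on chromosome 7 was not called (0.29, edgeR adjusted p = 0.0939).

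Complex IV, cytochrome c oxidase, has several subunits with alternative forms made from separate genes, and 2 of the alternative forms had the largest nuclear increases that passed the test. Cox4i2, the form of subunit 4 known from lung and from low oxygen (chromosome 3:148234193-148245416), had 12.5, 13.3 and 14.5 FPKM in rShh against 4.43, 3.52 and 4.38 FPKM in Control, a log2 change of 1.70 ± 0.13 (SE; edgeR adjusted p = 1.98e-06). Cox4i1, the common form, had 307, 293 and 296 FPKM in rShh and 336, 346 and 384 FPKM in Control (log2 change -0.26, edgeR adjusted p = 0.00547). The groups overlapped in neither gene. Cox4i2 thus made up 4.31% ± 0.378 of the FPKM of both forms in rShh and 1.15% ± 0.148 in Control (SD, n = 3 each).

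Cox6a2, the form of subunit 6a known from heart and skeletal muscle (chromosome 1:199624037-199624783), had 15.5, 14.8 and 15.7 FPKM in rShh against 5.93, 7.04 and 5.86 FPKM in Control, a log2 change of 1.27 ± 0.14 (SE; edgeR adjusted p = 3.41e-05). Cox6a1, the common form, had 243, 245 and 256 FPKM in rShh and 346, 413 and 458 FPKM in Control, a log2 change of -0.72 ± 0.09 (SE; edgeR adjusted p = 8.75e-05). Cox6a2 made up 5.81% ± 0.154 of the pair in rShh and 1.54% ± 0.241 in Control (SD, n = 3 each), and the groups did not overlap. Of 4 muscle markers tested 3 were higher in rShh, beside 31.5% of all genes tested. The intermediate filament gene Des had 7.34 CPM in rShh and 1.19 CPM in Control. Myh4 had 42, 49 and 21 counts in rShh and none in Control, and Tnnt3 had overlapping groups (edgeR adjusted p = 0.0438). Ckm, which was not tested, had 6, 0 and 0 counts in rShh and 47, 9 and 0 in Control. Acta1, skeletal muscle actin, was not called, the 5 muscle markers in the table summed to 88.2 to 109 CPM in rShh and 57.8 to 93.7 CPM in Control, and their part in the Cox6a2 values was not tested.

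Ndufa4l2, known as a target of the hypoxia factor HIF-1, and its relative Ndufa4, which carries a complex I name but is now placed in complex IV, were compared in the same way. Ndufa4l2 had 117, 123 and 128 FPKM in rShh against 97.9, 84.2 and 81.4 FPKM in Control, a log2 change of 0.47 ± 0.07 (SE; edgeR adjusted p = 0.000225). Ndufa4 had 94.8, 102 and 103 FPKM in rShh and 110.2, 108 and 111 FPKM in Control (log2 change -0.15, edgeR adjusted p = 0.0392). The call of Ndufa4 was lost without any one of rShh replicates 1, 2 and 3 and Control replicate 2 (log2 changes of -0.12, -0.15, -0.17 and -0.16, edgeR adjusted p = 0.149, 0.101, 0.0689 and 0.0660). Unlike Cox4i2 and Cox6a2, Ndufa4l2 was of the same order of abundance as its relative, at 55.1% ± 0.288 of the pair in rShh and 44.4% ± 2.43 in Control (SD, n = 3 each). Higd1a, an assembly protein of complex IV that is also known to respond to low oxygen, had 110 ± 2.87 CPM in rShh and 40.8 ± 1.52 CPM in Control (SD, n = 3 each; log2 change 1.44, edgeR adjusted p = 3.11e-08). The mRNA of Hif1a itself had 253 ± 9.01 CPM in rShh and 78.6 ± 7.35 CPM in Control (SD, n = 3 each), and its part in these values was not tested.

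The other alternative forms were hardly present. Cox6b2 had 11, 73 and 60 counts in rShh and 25, 0 and 0 in Control, and Cox7a1 had at most 0.367 FPKM in any library. Neither was called with all libraries, though Cox6b2 was called without Control replicate 1 (edgeR adjusted p = 0.00257), when the Control libraries left had no count.

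**Figure D4:**
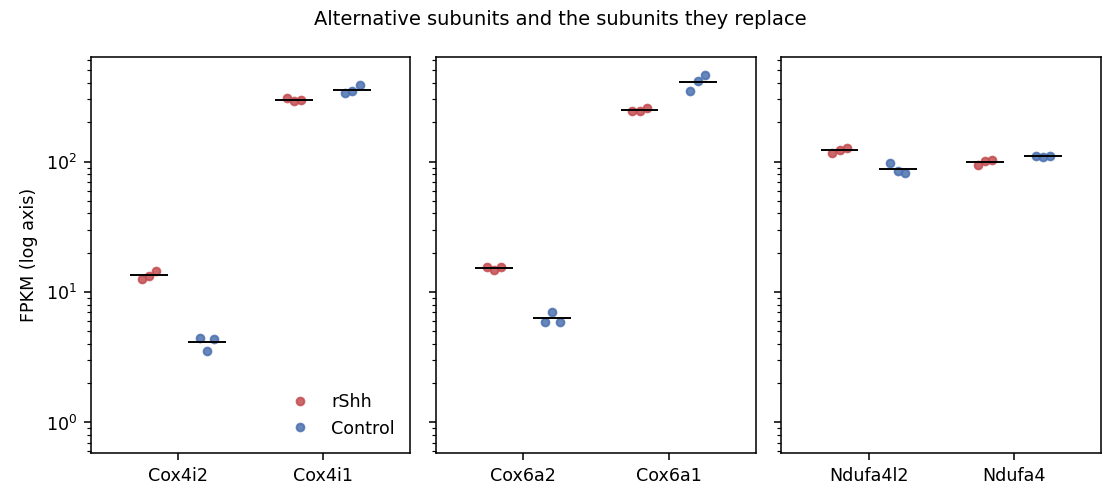
FPKM on a log axis (y) of 3 alternative subunits and their common or related forms (x) in each rShh and Control library; points are libraries and lines are group means. Cox4i2 and Cox6a2 are higher in rShh while Cox4i1 and Cox6a1 are lower, and Ndufa4l2 lies above Ndufa4 in rShh (55.1% of the pair) and below it in Control (44.4%).

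The common subunits of complex IV that changed were mostly lower. Cox5b, a zinc-binding subunit on the matrix side of the enzyme, had 128, 126 and 129 FPKM in rShh against 175, 185 and 210.1 FPKM in Control (log2 change -0.59, edgeR adjusted p = 8.42e-05), without overlap. Cox7a2l, known from mice as a factor that joins complexes III and IV, was lower as well (-0.48). Cox8a had 146, 150.1 and 155 FPKM in rShh and 157, 198 and 223 FPKM in Control (log2 change -0.37, edgeR adjusted p = 0.0150). The call of Cox8a was lost without any one of rShh replicates 1 and 2 and Control replicate 2 (log2 changes of -0.36, -0.36 and -0.35, edgeR adjusted p = 0.0522, 0.0512 and 0.0551).

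Cox7b and Cox5a went the other way. Cox7b, on the X chromosome, had 103, 114 and 109 FPKM in rShh against 91.8, 79.1 and 71.7 FPKM in Control (log2 change 0.41, edgeR adjusted p = 0.00188), without overlap. Of 518 X-linked genes tested 208 (40.2%) were higher and 94 (18.1%) lower, beside 31.5% and 28.8% of all genes tested. Of 3 X-linked nuclear respiratory chain genes, 1 was higher and 1 lower. The part of the X chromosome in the Cox7b values was not tested. Cox5a had 121, 114 and 126 FPKM in rShh and 81.8, 106 and 109 FPKM in Control, a log2 change of 0.27 (edgeR adjusted p = 0.0488). Its call was lost without any one of rShh replicates 1, 2 and 3 or Control replicates 1 and 2, at log2 changes of 0.25, 0.32, 0.24, 0.14 and 0.32 (edgeR adjusted p = 0.132, 0.0589, 0.143, 0.0855 and 0.0559). It was also lost with median-ratio scaling (adjusted p = 0.0532), total count scaling (0.0532), no low-count filter (0.0761) and quantile normalization (0.0759). Cox6c, next after Cox4i1 and Cox6a1 in mean FPKM over all 6 libraries though not in Control alone, had 189, 187 and 199 FPKM in rShh and 190.4, 164 and 193 FPKM in Control, overlapping. Cox6b1 on chromosome 1 (log2 change -0.05) and its likely copy on chromosome 2 (-0.10) were not called.

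Complex V had no nuclear gene higher in rShh. Atp5f1b, the catalytic beta subunit, with the highest mean FPKM of the nuclear genes over all 6 libraries, had 309.8, 312 and 309.9 FPKM in rShh against 378, 387 and 443 FPKM in Control, a log2 change of -0.38 ± 0.06 (SE; edgeR adjusted p = 0.000510). Atp5mc2, 1 of 3 genes for the proton-carrying ring protein, had 195, 179 and 192 FPKM in rShh against 273, 259 and 292 FPKM in Control (log2 change -0.55, edgeR adjusted p = 4.92e-05). In both, all rShh libraries were below all Control libraries. The other ring genes, Atp5mc1 (-0.33) and Atp5mc3 (-0.29), were also lower, as were the epsilon subunit Atp5f1e (-0.69), the stalk protein Atp5po (-0.52) and the alpha subunit Atp5f1a (-0.24). Atp5mg had 209, 200.1 and 227 FPKM in rShh and 232, 219 and 229 FPKM in Control, overlapping (edgeR adjusted p = 0.166). Atp5if1, the protein that inhibits ATP hydrolysis by the enzyme, had 198, 189.6 and 204 FPKM in rShh and 181, 174 and 187 FPKM in Control, a log2 change of 0.12 that did not pass (edgeR adjusted p = 0.105).

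The isoform table gave similar counts for transcripts. Of 107 isoform rows of these genes tested with limma, 21 were higher and 52 lower in rShh, in a table where 56.5% of all isoforms tested were called. The gene row of Atp5f1c, the gamma subunit, pools its own transcript with a long one described as Taf3. The Atp5f1c transcript had 83.6, 83.9 and 84.2 FPKM in rShh and 119, 108 and 116 FPKM in Control (limma log2 change -0.44, adjusted p = 0.000511), while the pooled transcript had 2.01, 2.17 and 1.74 FPKM in rShh and 1.58, 1.33 and 1.25 FPKM in Control. Ndufv3, an accessory complex I subunit, has a long and a short isoform in the table. The short one made up 7.62%, 5.10% and 7.31% of the gene's FPKM in rShh and 15.7%, 11.05% and 11.02% in Control, without overlap.

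The nuclear genes are mostly short and abundant, and short, abundant mRNAs as a class were often lower in rShh. Of 87 nuclear rows with a single isoform 57 had a transcript under 1000 nt. Among all 827 genes tested with 1 isoform under 1000 nt and a mean of at least 10 FPKM, 461 (55.7%) were lower and 125 (15.1%) higher in rShh, with a median log2 change of -0.35, beside 57.0%, 9.68% and -0.32 for the nuclear respiratory chain genes. Of those 827 genes 62 were respiratory chain genes, the mitochondrially encoded ones included. Among 3097 genes of the same level with longer transcripts, 1256 (40.6%) were lower. Within the nuclear respiratory chain genes, 33 of 56 tested with a short transcript were lower (median log2 change -0.33) and 15 of 30 with a longer one (median -0.23). At the same level, a mean of at least 10 FPKM and any length, 51 of 83 nuclear genes (61.4%) were lower. Without the limit on level, 31.4% of 2094 short genes tested were lower, beside 58.9% of the short nuclear genes. No test compared these shares. The comparison was chosen after the values were seen, and the part of transcript length in the result was not tested.

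Among genes that serve the chain, nearly all of them outside the 107 genes, each of these lists held more genes lower than higher in rShh. Among all genes tested 28.8% were lower and 31.5% higher. Of 77 mitochondrial ribosomal protein genes tested 52 were lower and 2 higher in rShh (median log2 change -0.36). Of 20 genes for cytochrome c and complex IV assembly 10 were lower and 4 higher, with Cox14 (-0.79) and Higd2a (-0.65) lower and cytochrome c itself, Cycs, higher (0.30). Of 15 assembly genes of complexes II, III and V 6 were lower and 2 higher, with Uqcc2 (-0.71) and Uqcc3 (-0.63) lower and Ttc19 higher (0.76). This list holds Atp5if1, which is also among the 107 genes, and Tmem70, which is also counted with the complex I assembly genes. Neither was called. Of 11 coenzyme Q synthesis genes 6 were lower and 1 higher, with the lowest log2 changes in Coq2 (-0.88), Coq9 (-0.73) and Coq5 (-0.68).

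Among 24 genes for transcribing, copying and handling mitochondrial DNA and RNA, 7 (29.2%) were lower and 5 (20.8%) higher. Their median log2 change was -0.01, and among all genes tested 28.8% were lower and 31.5% higher. The 5 higher were Fastkd2 (0.55), Trmt10c (0.51), Pnpt1 (0.47), Tfb2m (0.45) and Lrpprc (0.21). The 7 lower included Polg2 (-1.20), Ptcd1 (-0.80), Tefm (-0.61), Supv3l1 (-0.54) and Hsd17b10 (-0.41). The mitochondrial RNA polymerase Polrmt had 10.8 ± 0.355 CPM in rShh and 17.9 ± 0.380 CPM in Control (SD, n = 3 each; log2 change -0.72, edgeR adjusted p = 9.28e-05). Elac2, which cuts tRNAs out of the precursor RNA, was lower too (-0.88), while the packaging factor Tfam had 22.7 ± 0.239 CPM in rShh and 25.7 ± 1.43 CPM in Control (SD, n = 3 each) and was not called (edgeR adjusted p = 0.0752).

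Of 12 nuclear regulators of respiratory chain genes 5 were lower and 3 higher, beside 28.8% and 31.5% of all genes tested. Nrf1, nuclear respiratory factor 1, had a log2 change of -0.38 and Myc of -0.42, while Gabpa was higher (0.74) and Yy1 was not called (0.06, edgeR adjusted p = 0.580). Ppargc1a, a coactivator of mitochondrial biogenesis, had 14, 18 and 15 counts in rShh and none in Control (edgeR adjusted p = 0.00213), near the limit of detection in both groups. Of 13 tricarboxylic acid cycle genes 5 were lower and 4 higher, with Idh2 (-0.53) and Suclg2 (-0.53) lower and Sucla2 (0.53) higher. Of 12 genes for mitochondrial membranes and mass 6 were lower and 1 higher: Phb (-0.71) and Phb2 (-0.50), the prohibitins of the inner membrane, were lower, the chaperonin Hspd1 (0.50) was higher, and Vdac1, the outer membrane channel, had 166 ± 2.92 CPM in rShh and 167 ± 11.3 CPM in Control (SD, n = 3 each).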

How the data were processed

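Poly(A) RNA of 3 rShh and 3 Control samples was sequenced from stranded (dUTP) libraries, per the labels' protocols. The tools named, per the submitters' processing notes, are StringTie 1.3.4d, HISAT2 2.0.4, cutadapt 1.9, edgeR and DESeq2, with no roles; for the genome build and the strand setting, nothing is given in the sources used here. The authors deposited a gene and an isoform table with raw, whole-number counts and with FPKM values, which the authors scaled to transcript length and library size.

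The deposited counts of all genes were tested with edgeR 4.0.16 in R 4.3.3 (filterByExpr with a minimum count of 10, TMM, quasi-likelihood F test, two-sided, Benjamini-Hochberg over all genes tested, threshold 0.05). For isoforms, log2(FPKM + 1) was tested with limma-trend (limma 3.58.1) where the mean FPKM reached 1, a scale that understates the change of low isoforms. The SE given with an edgeR log2 change is derived from the test, as the absolute log2 change divided by the square root of the F statistic. The pseudocount of mean log2 CPM is 0.5. Gene levels are the FPKM summed over a gene's isoform rows, since the deposited gene FPKM equalled that sum within 1% in 6.40% of 3611 rows with several isoforms (96.3% of 15477 with 1). The test was tried on simulated counts. Alternatives included DESeq2 1.42.0, limma on FPKM, other scalings and filters, a replicate block and leaving out each library.

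The members and the lists were chosen with earlier results of these data known, and the motifs likewise. Named are all mitochondrially encoded genes, the 4 Sdh genes, the alternative-subunit groups, the 8 highest and 8 lowest called nuclear genes without overlap, the 3 most abundant nuclear genes of each complex and up to 3 genes of each list with the smallest p. Ndufa1, Ndufv3, Atp5f1c, Atp5if1, Vdac1, Yy1, Tfam, the Ppargc1a, Nrf1, Myc and Cycs values and other members given by log2 change alone were chosen after their values were seen. So were Cldn5, Ckm, Krt8 and the further genes named from the lists for nucleus pulposus cells, leukocytes and mitochondrial DNA and RNA. Rows named alike on different chromosomes may share reads and were kept apart. Within groups, the chi-square per degree of freedom between libraries was 10.5 to 50.5, above counting noise, so no library was taken as a repeat deposit of another; this does not show that samples were independent.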

Additional observations from a re-analysis of the deposited data

How the results depend on the processing

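All 13 mitochondrially encoded genes stayed called higher under every alternative tried except the test against a change of 1.2-fold (12). Leaving out 1 library at a time gave 5 to 10 nuclear genes higher, 46 to 55 lower, 18 to 23 of all 106 higher and 46 to 55 lower, a difference of 0.92 to 1.10 between the genomes' mean log2 changes, and 7838 to 9252 calls over all genes. The lowest count of nuclear genes higher, 5, came without rShh replicate 1. Quantile normalization, chosen after seeing the data, left 5 nuclear genes higher; it moved the median log2 change of all genes to -0.10 and the calls over all genes to 4200 higher and 5327 lower, with a nuclear median of -0.38. The 1.2-fold test, also chosen later, left 4 nuclear genes higher and 34 lower, so 34 of all 106 lower; over all genes it called 24.9% higher and 19.4% lower. These losses follow from small changes set against a minimum size; the cause of the others was not tested. Of the 53 nuclear genes lower, 50 were shared with the fit with a replicate block, which called 8 nuclear genes higher and 51 lower, 13 mitochondrially encoded genes higher and 8440 genes in all; Ndufa4 (adjusted p = 0.0760) and the chromosome 1 row of Uqcrb (0.0816) were not called in it. Same-numbered samples did not deviate together (correlations of -0.0750, -0.00974 and -0.00936 over 14775 genes), so the numbers were not taken as pairs. The log2 change of Cox6c, which was not called, ranged over -0.0063 to 0.11 as libraries were left out, and was negative without Control replicate 2. Copies that share reads, isoform estimates and genes with few counts, such as Cox6b2, Cox7a1 and the chromosome 6 row of Ndufa10l1, limit what 3 samples a group can show.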
